A study of Mus musculus with 6 samples.

Results

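The clustered histone genes of the mouse were followed in brachiocephalic arteries of Col15a1-/- (KO) and wild type (WT) mice. A gene belonged to the set when its symbol began with Hist1h, Hist2h, Hist3h or Hist4h and it had 30 or more counts over the 6 libraries together. This held for 56 of the 68 clustered histone genes in the count table, which listed 24391 genes in all. By symbol the set holds 5 linker histone genes (H1) and 51 core histone genes. The core genes are 13 of type H2A, 16 of type H2B, 10 of type H3 and 12 of type H4. Those of type H2B include Hist3h2bb-ps, which is a pseudogene by its symbol and is counted with them throughout. In mm9 coordinates, 46 lie in the Hist1 cluster on chromosome 13, 6 in the Hist2 cluster on chromosome 3 and 3 in the Hist3 cluster on chromosome 11, and Hist4h4 stands alone on chromosome 6.

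The libraries came from 3 KO and 3 WT animals, all with a C57BL/6 background and all kept on a Western diet for 18 weeks. The series title describes the Col15a1 deletion as specific to smooth muscle cells, while the genotype label is Col15a1-/- without a driver. Whether further alleles were shared by both groups, and the age of the animals, are not given in the sources used here. The deleted gene codes for type XV collagen, a component of basement membrane zones. Per the labels the lesions hold several cell types, smooth muscle cells and macrophages among them, so in every comparison fewer cells of a type and less RNA per cell cannot be told apart.

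Clustered histone genes supply the proteins around which newly copied DNA is wrapped. Most of their transcripts are made in S phase, carry no poly(A) tail, and end just past a short stem-loop that the stem-loop binding protein SLBP recognises. A few clustered genes also make transcripts with a poly(A) tail, in cells that have stopped dividing as well. The replacement variants, such as H2afz and H3f3b, are encoded elsewhere, mostly with ordinary poly(A) tails, and many of them are made throughout the cell cycle. A histone transcript level in tissue therefore depends on how many cells replicate their DNA, and its count also depends on whether the library holds RNA without poly(A) tails.

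The stem-loop is shown here because it is the element that the set shares and that sets its transcripts apart from other mRNA. A 16-base stem-loop was found in GENCODE M21 transcripts (GRCm38) of 36 of the 56 members, in 6 versions, by a search for a 6-base arm beginning with GG, a 4-base loop beginning with TT and the reverse complement of the arm. The annotated transcripts of the other 20 members did not hold one. Letters are those of the DNA strand that matches the RNA, capitals mark the stem arms, and the name gives the histone types that carry the version.
H1, H2A, H2B and H3, 20 members: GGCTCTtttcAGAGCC
H2B and H3, 5 members: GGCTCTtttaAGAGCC
H2A, Hist2h2ac: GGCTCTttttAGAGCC
H4, 6 members: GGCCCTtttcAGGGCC
H4, 2 members: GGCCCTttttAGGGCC
H4, Hist1h4b and Hist1h4j: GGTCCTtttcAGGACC
The arms GGCTCT and AGAGCC were carried by 26 members, none of type H4, and all 10 members of type H4 with a stem-loop had another pair of arms.

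The promoters also differed by type. RefSeq promoter windows (GRCm38.p6, 250 bases before to 50 after the start) matched 50 of the 56 members and were searched on both strands for the octamer ATTTGCAT, the CCAAT box CCAAT and the TATA box TATAAA. None of these 3 motifs contains another. The octamer, a binding motif of POU factors, was present in 11 of 50 members (22.0%), 6 of 13 windows of type H2A and 5 of 13 of type H2B and no other, against 1.75% of all 27025 windows. CCAAT was present in 42 of 50 (84.0%) against 37.9% of all windows. It was present in all 39 windows of types H1, H2A, H2B and H3 and in 3 of 11 of type H4. TATAAA was present in 31 of 50 (62.0%) against 14.2%. Windows of head-to-head neighbours can overlap, as for Hist1h2ae with Hist1h2bg and Hist1h2ah with Hist1h2bk. The same octamer can then count for both partners, so windows are not independent and the shares of members may be too high. These matches describe letters, not binding.

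Windows of 4 members that the results below turn on are given over the 150 bases before the start, on the gene's strand, with matches to the 3 motifs in capitals. They are Hist2h2bb (chr3:96269550-96269699, plus strand), Hist2h2ac (chr3:96220881-96221030, minus strand), which lies head to head with Hist2h2be, Hist1h3c (chr13:23745522-23745671, minus strand) and Hist1h4j (chr13:21734884-21735033, plus strand).
Hist2h2bb: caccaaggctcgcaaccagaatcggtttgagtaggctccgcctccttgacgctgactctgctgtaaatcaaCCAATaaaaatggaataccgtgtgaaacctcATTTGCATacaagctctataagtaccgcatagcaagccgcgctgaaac
Hist2h2ac: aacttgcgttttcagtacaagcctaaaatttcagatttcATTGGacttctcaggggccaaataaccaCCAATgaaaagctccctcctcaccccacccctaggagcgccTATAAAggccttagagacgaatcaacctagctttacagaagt
Hist1h3c: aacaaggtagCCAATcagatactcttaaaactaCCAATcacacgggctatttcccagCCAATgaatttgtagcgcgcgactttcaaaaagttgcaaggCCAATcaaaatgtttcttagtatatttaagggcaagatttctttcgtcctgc
Hist1h4j: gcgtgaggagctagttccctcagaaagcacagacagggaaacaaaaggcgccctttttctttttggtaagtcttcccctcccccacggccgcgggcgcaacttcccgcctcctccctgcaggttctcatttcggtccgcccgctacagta
The stretch shown for Hist2h2bb held an octamer and a CCAAT box, that for Hist2h2ac CCAAT boxes on both strands and a TATA box, and that for Hist1h3c CCAAT boxes. The stretch shown for Hist1h4j held no match to the 3 motifs.

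Total counts per library were 22223584 to 26982005, and members had totals of 52 to 9965 counts over the 6 libraries, so that for the lowest members counting error is a large part of the spread. Col15a1, the deleted gene, had 193, 198 and 90.9 CPM (counts per 1000000 counts of the library, with the library size adjusted for composition by the TMM method) in KO 1, KO 2 and KO 3, against 574, 407 and 501 CPM in WT 1, WT 2 and WT 3, a log2 fold change of −1.62 (SE 0.33). All KO libraries lay below all WT libraries, and transcripts were still present in KO. Of the marker lists checked, smooth muscle, endothelial and macrophage genes were present in all 6 libraries. KO 3 and WT 2 stood apart by sympathetic nerve genes such as Th and Dbh, enzymes of noradrenaline synthesis. The summed level of the 11 nerve genes was 248, 206 and 5507 CPM in KO 1, KO 2 and KO 3, against 235, 2646 and 277 CPM in WT 1, WT 2 and WT 3. Results below are therefore also given without KO 3, or without both of these libraries.

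Most clustered histone genes had a lower mean in KO arteries, but no single member passed the test. Of the 55 members tested (Hist1h2ah did not pass the filter on low counts), 41 had a lower mean in KO (74.5%, against 39.1% of all 15937 genes tested) and 14 a higher one. The median log2 fold change was −0.53, against 0.07 over all genes. By edgeR's quasi-likelihood test with Benjamini-Hochberg adjustment, 0 of 55 members and 0 of 15937 genes (0%) had an adjusted p under 0.05, and the smallest adjusted p was 0.587 for members and for all genes. At an unadjusted p under 0.05, 6 members were lower in KO (3.98% of all genes were) and 1 was higher (4.02% of all genes were). DESeq2 called 53 genes, among them 1 member, Hist2h2bb (23 genes, 0.144%, were called lower), and limma-voom called 0. The KO libraries all lay below the WT libraries for 19 of 55 members (34.5%, against 8.38% of all genes), and all above for 3 (5.45%, against 8.32%).

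Part of the difference rested on KO 3. This library was the lowest of the 6 for 35 of 55 members (63.6%), against 26.2% of all genes tested, while KO 1 was lowest for 7 and KO 2 for 1. Without KO 3 the median log2 fold change of the members was −0.26, with 39 of 56 members lower in KO, where 50.5% of all genes were lower. In that fit 4 members were lower and 2 higher at an unadjusted p under 0.05, 6 of 56 in all, near the 8.3% of all genes at that level. Without KO 3 and WT 2 it was −0.33, with 41 of 55 lower, where 49.5% of all genes were lower. In that fit 8 of 55 members, 7 lower and 1 higher, had an unadjusted p under 0.05, as had 10.2% of all genes. Without KO 3 the 2 KO libraries lay below the 3 WT libraries for 19 of 55 members (34.5%, against 14.6% of all genes). They lay above for 5 of 55 (9.09%, against 14.9%). Without both libraries KO lay below WT for 26 of 55 (47.3%, against 20% of all genes). KO lay above WT for 8 of 55 (14.5%, against 20.5%) there.

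**Figure D1:**
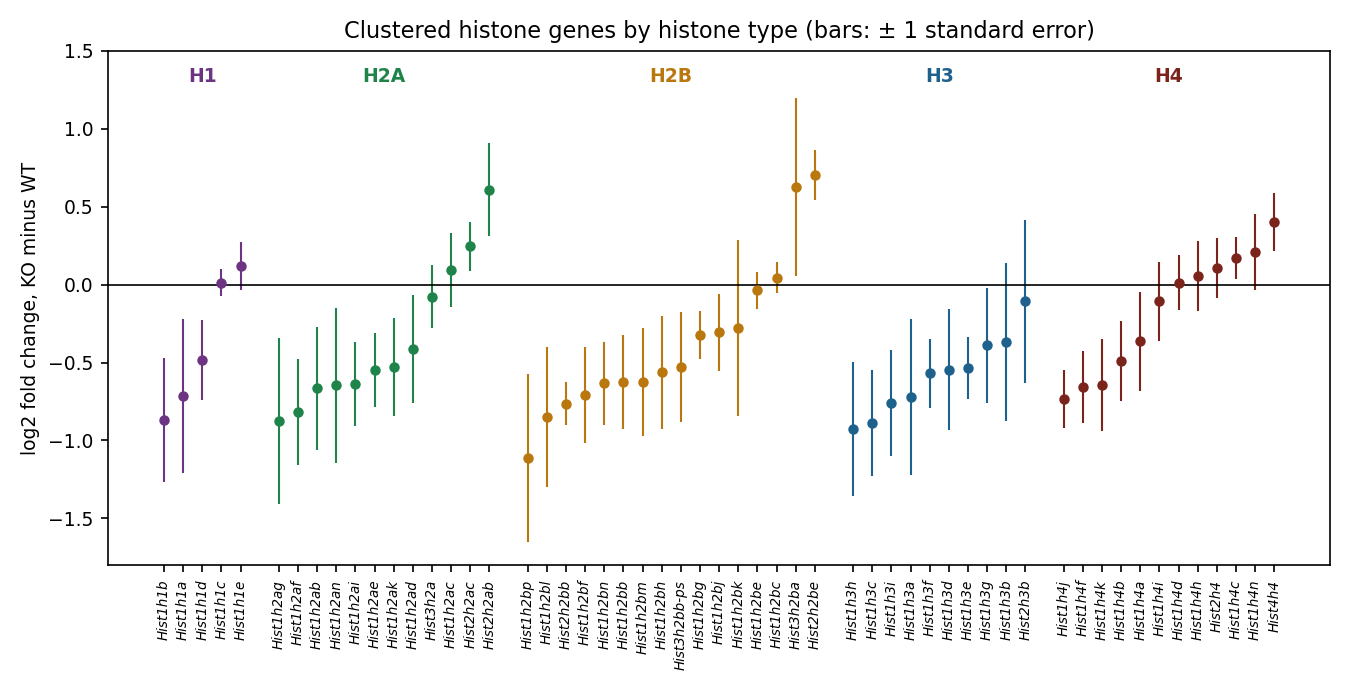
Log2 fold change of each of the 55 members tested, KO minus WT, with bars of 1 standard error, grouped along the horizontal axis by histone type. All 10 H3 genes lie below 0, while 6 of 12 H4 genes lie above it.

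Members with many counts and members with few counts differed in their median. The 12 members with the highest mean CPM, which is not corrected for gene length, had a median log2 fold change of 0.03, with 4 lower in KO and 8 higher. Their summed level was 339, 367 and 341 CPM in KO 1, KO 2 and KO 3, against 364, 340 and 355 CPM in WT 1, WT 2 and WT 3, and the groups overlapped. The other 43 members tested had a median of −0.56, with 37 lower in KO. Together with Hist1h2ah they summed to 160, 185 and 112 CPM in KO 1, KO 2 and KO 3, against 215, 199 and 211 CPM in WT 1, WT 2 and WT 3. Every KO library lay below every WT library for this sum, and the mean was 152 ± 37.2 CPM in KO against 208 ± 8.36 CPM in WT (SD, n = 3 each). Without KO 3 the medians were 0.03 for the 12 and −0.32 for the rest.

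**Figure D2:**
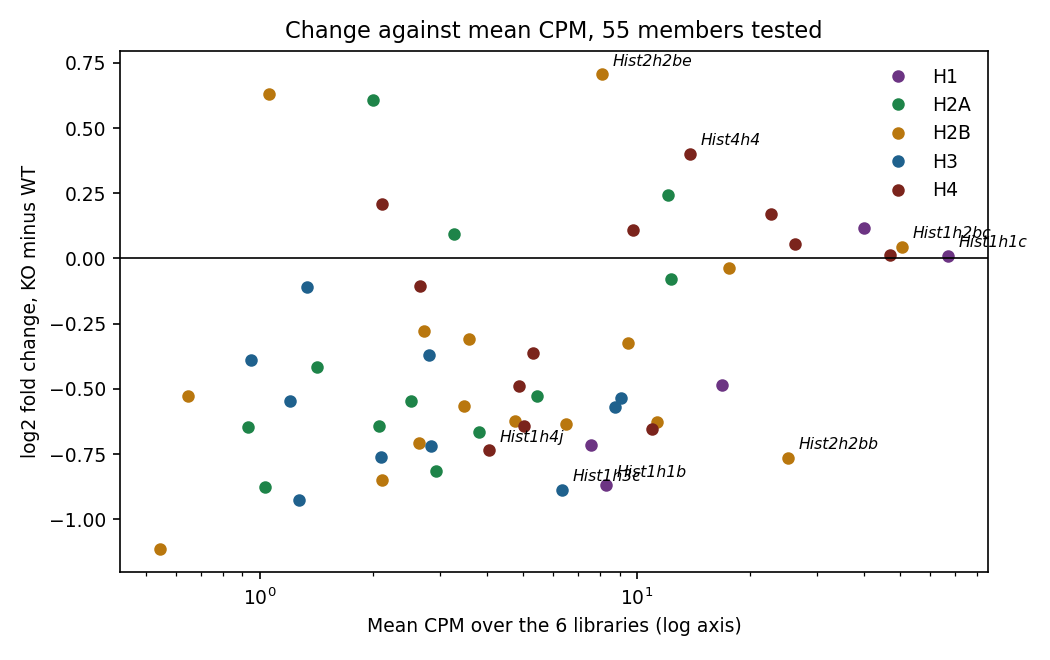
Log2 fold change (KO minus WT) of the 55 members tested against the mean CPM over the 6 libraries, on a log axis, with colour by histone type. Members near the right edge, such as Hist1h1c and Hist1h2bc, lie near 0, and most of the others lie below it.

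Linker histones H1 bind the DNA that enters and leaves the nucleosome. Hist1h1c, the H1 gene with the highest level per length, had 69.6, 65.9 and 66.0 CPM in the 3 KO libraries, against 67.3, 64.1 and 68.6 CPM in the 3 WT libraries. The groups overlapped, with a log2 fold change of 0.01 (SE 0.09). Hist1h1e had 48.3, 40.7 and 36.0 CPM in KO, against 38.9, 34.0 and 42.2 CPM in WT, again with overlap (0.12, SE 0.15). The other H1 genes were lower on average in KO. Hist1h1d had 18.0, 14.4 and 9.65 CPM in KO, against 17.8, 17.7 and 23.4 CPM in WT (−0.49, SE 0.26). KO 1 lay within the range of the WT libraries for this gene. Hist1h1b and Hist1h1a, which are known as linker histones of dividing cells, had log2 fold changes of −0.87 (SE 0.40) and −0.71 (SE 0.49). Both were lowest in KO 3, at 2.76 and 2.13 CPM. Every KO library lay below every WT library for Hist1h1b. The groups overlapped for Hist1h1a, where KO 2 at 8.81 CPM lay above WT 2 at 7.86 CPM.

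H2A and H2B pair with each other in the nucleosome, and their genes often stand head to head. Of 12 H2A genes tested, 9 were lower in KO (median −0.54), and of 16 H2B genes 13 were (median −0.55). These medians were −0.26 for H2A and −0.30 for H2B without KO 3. Hist2h2bb (mm9 chr3:96073623-96074115) had the smallest p of all members. It had 18.7, 21.1 and 16.3 CPM in KO, against 34.6, 30.9 and 29.6 CPM in WT. The 3 KO libraries lay well below the 3 WT libraries, with a log2 fold change of −0.76 (SE 0.14, edgeR adjusted p = 0.587). DESeq2 gave −0.78 with an adjusted p of 0.0063, and edgeR without KO 3 gave −0.67. By GENCODE M21, 46.4% of the 50-base windows of its transcript were unique, and the others were shared with the gene model Gm42743.

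Hist2h2be, an H2B gene that is known to be expressed in non-dividing cells, was higher in KO. It lies in the same cluster as Hist2h2bb (mm9 chr3:96025044-96027661) and had 9.999, 10.8 and 9.34 CPM in KO, against 5.86, 6.95 and 5.64 CPM in WT. All KO libraries were above all WT libraries, with a log2 fold change of 0.71 (SE 0.16, edgeR adjusted p = 0.587), and every 50-base window of its transcript was unique. Its head-to-head partner Hist2h2ac had 13.75, 14.52 and 11.07 CPM in KO, against 12.05, 10.11 and 11.05 CPM in WT, where the ranges overlapped (0.24, SE 0.16). Hist2h2ab, the H2A gene next to Hist2h2ac, had 2.59, 2.36 and 2.29 CPM in KO, against 1.36, 1.18 and 2.20 CPM in WT. The KO libraries were again all higher, by a small margin over WT 3 (0.61, SE 0.30). Of the 6 Hist2 members, 4 were higher in KO and the median was 0.18, while 37 of 45 Hist1 members tested were lower with a median of −0.55. The summed level of the Hist2 members was not higher in KO. It was 54.7, 61.9 and 50.4 CPM in KO, against 67.0, 59.3 and 57.6 CPM in WT, with overlap. Hist2h2bb had the highest mean CPM of the cluster. The medians without KO 3 were 0.24 for Hist2 and −0.31 for Hist1.

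Among the other H2A and H2B genes with many counts, Hist1h2bc had 53.8, 49.98 and 50.2 CPM in KO, against 45.95, 53.7 and 49.6 CPM in WT (0.05, SE 0.10). Hist1h2be had 16.3, 18.9 and 16.6 CPM in KO, against 19.1, 16.9 and 17.2 CPM in WT (−0.04, SE 0.12). KO and WT overlapped for these H2B genes. Hist3h2a, an H2A gene, had 9.999, 11.8 and 14.3 CPM in KO, against 10.5, 14.9 and 12.6 CPM in WT (−0.08, SE 0.20). Hist3h2ba, the H2B gene nearby, had 0.776, 0.785 and 2.29 CPM in KO, against 1.09, 0.941 and 0.463 CPM in WT. Its higher KO mean came from KO 3, and the log2 fold change of 0.63 (SE 0.57) became −0.09 without that library. There were 10 pairs of members with start sites within 1000 bases of each other on opposite strands (173 to 608 bases apart). One of them, Hist1h2bh with Hist1h3f, joins H2B and H3. Both partners were lower in KO in 8 pairs and both higher in 2, Hist2h2ac with Hist2h2be and Hist1h2ac with Hist1h2bc. The last pair was near 0 (0.09 and 0.05), as was Hist3h2a in a pair that was lower. With 41 of 55 members tested lower in KO, shared signs are frequent without any pairing, and the pairs were not tested.

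Histones H3 and H4 form the tetramer at the centre of the nucleosome. All 10 H3 genes had a lower mean in KO, with a median log2 fold change of −0.56 and a range of −0.93 to −0.11. Their summed level was 30.5, 35.9 and 20.7 CPM in KO, against 44.4, 43.7 and 44.96 CPM in WT, so every KO library was below every WT library while the WT libraries were close to each other. Without KO 3, 8 of 10 were lower and the median was −0.36. Hist1h3e had 5.90, 8.72 and 7.60 CPM in KO, against 9.27, 11.2 and 11.7 CPM in WT (−0.53, SE 0.20). Hist1h3f had 6.55, 9.16 and 5.44 CPM in KO, against 10.4, 10.7 and 10.3 CPM in WT (−0.57, SE 0.22). Hist1h3c had 5.99, 4.75 and 2.60 CPM in KO, against 9.86, 6.75 and 8.07 CPM in WT (−0.89, SE 0.34). For each of these genes the groups did not overlap, and the edgeR adjusted p was 0.605 for Hist1h3e and 0.617 for both others. Much H3 sequence is shared between copies. In Hist1h3e, 26.6% of 50-base windows were unique, and for Hist1h3h, the lowest of all members, 6.08% were.

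H4 genes did not share one direction. Of 12, 6 were lower and 6 higher in KO, with a median of −0.05. Hist1h4d, the member with the highest level per length at 128 CPM per kilobase in KO and 127 in WT, had 36.0, 53.0 and 52.2 CPM in KO, against 51.8, 44.6 and 43.6 CPM in WT (0.01, SE 0.18). Hist1h4h had 19.8, 32.8 and 27.6 CPM in KO, against 29.5, 21.2 and 26.4 CPM in WT (0.06, SE 0.22). Hist1h4c had 21.4, 23.8 and 26.8 CPM in KO, against 23.7, 20.3 and 20.1 CPM in WT (0.17, SE 0.14). These 3 genes overlapped between the groups. Hist4h4, alone on chromosome 6, was higher in all KO libraries by small margins, with 13.6, 19.7 and 14.0 CPM in KO, against 13, 11.9 and 10.97 CPM in WT (0.40, SE 0.19).

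The H4 genes with the smallest p were lower in KO. Hist1h4j had 3.28, 3.14 and 2.72 CPM in KO, against 5.55, 5.04 and 4.63 CPM in WT. The KO libraries were all lower and close to each other (SD 0.291 CPM), with a log2 fold change of −0.74 (SE 0.19, edgeR adjusted p = 0.587), and it stayed between −0.87 and −0.66 when any single library was left out. Hist1h4f had 8.02, 11.1 and 6.5 CPM in KO, against 14.5, 11.7 and 14.1 CPM in WT (−0.65, SE 0.23). The groups did not overlap, although KO 2 came near WT 2.

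**Figure D3:**
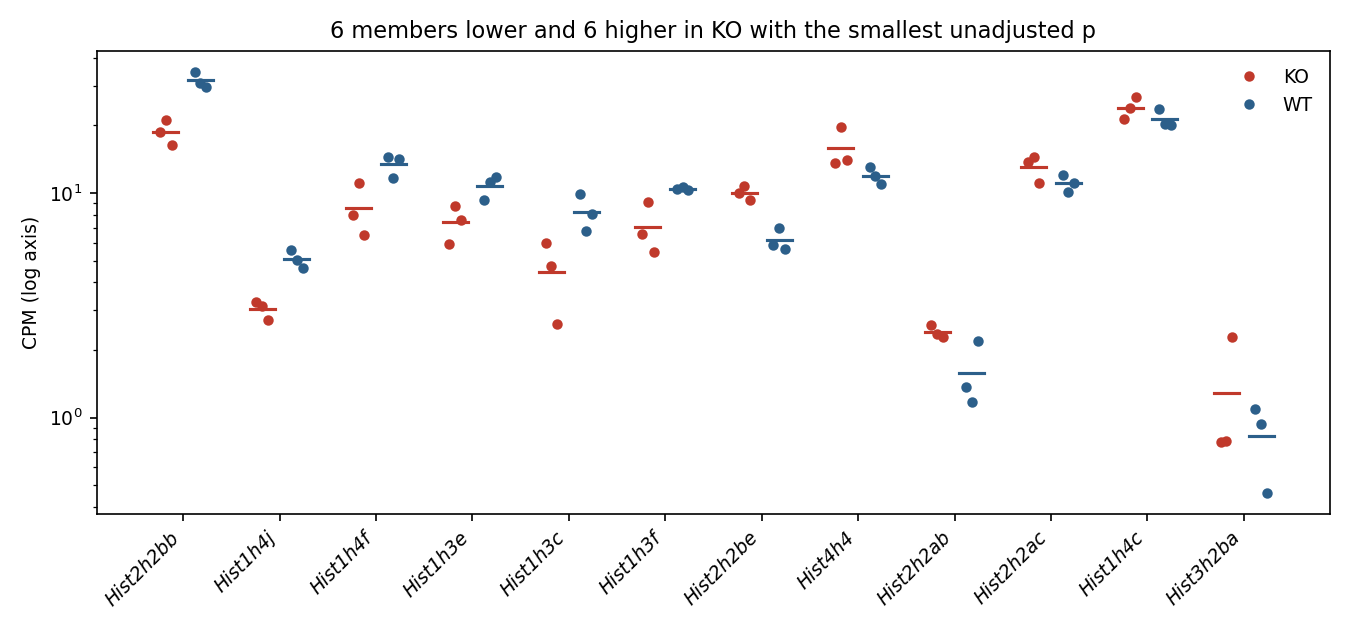
CPM on a log axis in each library (points) and group mean (lines) for the 6 members lower in KO and the 6 higher in KO with the smallest unadjusted p, KO left of WT for each gene. KO and WT are separate for the 6 genes at the left and for Hist2h2be, Hist4h4 and Hist2h2ab, and overlap for the last 3.

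The members were also divided by what is known of their transcript ends. The 6 members known to make transcripts with a poly(A) tail (Hist1h1c, Hist1h2bc, Hist2h2be, Hist3h2a, Hist3h2ba and Hist4h4) had 1 lower and 5 higher in KO and a median log2 fold change of 0.22. They summed to 158, 159 and 156 CPM in KO, against 144, 152 and 148 CPM in WT, and KO 3 was the lowest library for none of them. The other 49 members tested had 40 lower and 9 higher and a median of −0.55, and KO 3 was lowest for 35 of them. The 19 members whose annotated transcript ran 100 or more bases past the stem-loop had a median of −0.08, the 17 with a nearer annotated end −0.62, and the 19 tested members without an annotated stem-loop −0.64. The limit of 100 bases was chosen after the values were seen. Without KO 3, the 6 members with known poly(A) transcripts had 2 lower and 4 higher and a median of 0.04. The other 50 members had a median of −0.31 in that fit. Without KO 3 and WT 2 these medians were 0.06 and −0.38. For the groups by annotated transcript end, the medians without KO 3 were −0.09, −0.33 and −0.36, in the order above.

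RNA without poly(A) tails was present in every library. Rmrp, the RNA of an RNase that processes ribosomal RNA, had 4312, 5058 and 4049 CPM in KO, against 4716, 4634 and 4289 CPM in WT. Rpph1, the RNA of RNase P, had 6913, 6880 and 6598 CPM in KO, against 6861, 6337 and 7571 CPM in WT. Both overlapped between the groups, with log2 fold changes of −0.02 and −0.03. The 45S ribosomal RNA Rn45s had 81067, 68872 and 107071 CPM in KO, against 63104, 18495 and 99677 CPM in WT, and was highest in KO 3 and lowest in WT 2. Vaultrc5 had 69.0, 44.0 and 34.1 CPM in KO, against 56.8, 87.5 and 119 CPM in WT. Its groups overlapped, with a log2 fold change of −0.84 (SE 0.36), so the class did not move as one. Of the 16 RNAs listed in this class 7 were tested, 5 were lower and 2 higher in KO with a median of −0.03. None passed an unadjusted p of 0.05 by edgeR. The series design speaks of mRNA and the sample labels of total RNA, and how RNA was selected for the libraries is not given in the sources used here. Its part in the histone differences was not tested.

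The polyadenylated replacement variants had a median nearer 0 than the clustered genes. Of 11, 7 were lower in KO with a median log2 fold change of −0.10, 2 of them at an unadjusted p under 0.05. Whether each of the 11 makes only transcripts with a poly(A) tail, or is made independently of replication, was not examined. H3f3b, a source of the replacement histone H3, had 215, 233 and 172 CPM in KO, against 270, 237 and 233 CPM in WT (−0.26, SE 0.15). The groups just overlapped, with KO 2 level with WT 3. H3f3a, which encodes the same protein, overlapped as well (−0.08). The 2 variants with a low p were H2afz, at 37.1, 41.5 and 45.3 CPM in KO, against 50.7, 58.7 and 54.0 CPM in WT (−0.40, SE 0.12), and H2afx, a variant that marks DNA breaks, with −0.50 (SE 0.16). H2afz was not lowest in KO 3 but in KO 1. Neither passed adjustment (edgeR adjusted p = 0.587 for both).

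Genes that make and process histone mRNA were split in direction. Of 14 such genes 5 were lower and 9 higher in KO, with a median of 0.03 and 0 at an unadjusted p under 0.05. Slbp, named here after its value was seen because it binds the stem-loop, had 18.4, 21.8 and 17.6 CPM in KO, against 20.05, 18.2 and 17.7 CPM in WT (0.04, SE 0.13). Of 14 histone chaperones, which escort histones to DNA, 6 were lower and 8 higher with a median of 0.06. Asf1b, a chaperone of dividing cells, was the exception at an unadjusted p under 0.05, with 1.77, 1.26 and 1.3 CPM in KO, against 2.45, 2.28 and 2.16 CPM in WT (−0.67, SE 0.24).

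Proliferation genes were mostly lower in KO as well. Of 26 S phase genes 22 were lower in KO (median −0.36), 5 of them at an unadjusted p under 0.05 and 0 after adjustment by edgeR. Pcna, the sliding clamp of DNA polymerase, had 36.3, 42.3 and 30.7 CPM in KO, against 49.8, 45.7 and 46.1 CPM in WT (−0.37, SE 0.14). The summed level of this list was 315, 343 and 257 CPM in KO, against 379, 345 and 380 CPM in WT, with KO 2 close to WT 2. Of 21 mitosis genes 21 were lower (median −0.69), 8 at an unadjusted p under 0.05 and 0 after adjustment. Mki67, which encodes the Ki-67 protein of cycling cells, had 51.3, 53.4 and 22.1 CPM in KO, against 67.0, 63.1 and 86.1 CPM in WT (−0.77, SE 0.35). KO 3 was the lowest library for 18 of the S phase genes and 19 of the mitosis genes, as it was for most clustered histone genes. Without KO 3 the medians were −0.28 for S phase and −0.46 for mitosis.

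**Figure D4:**
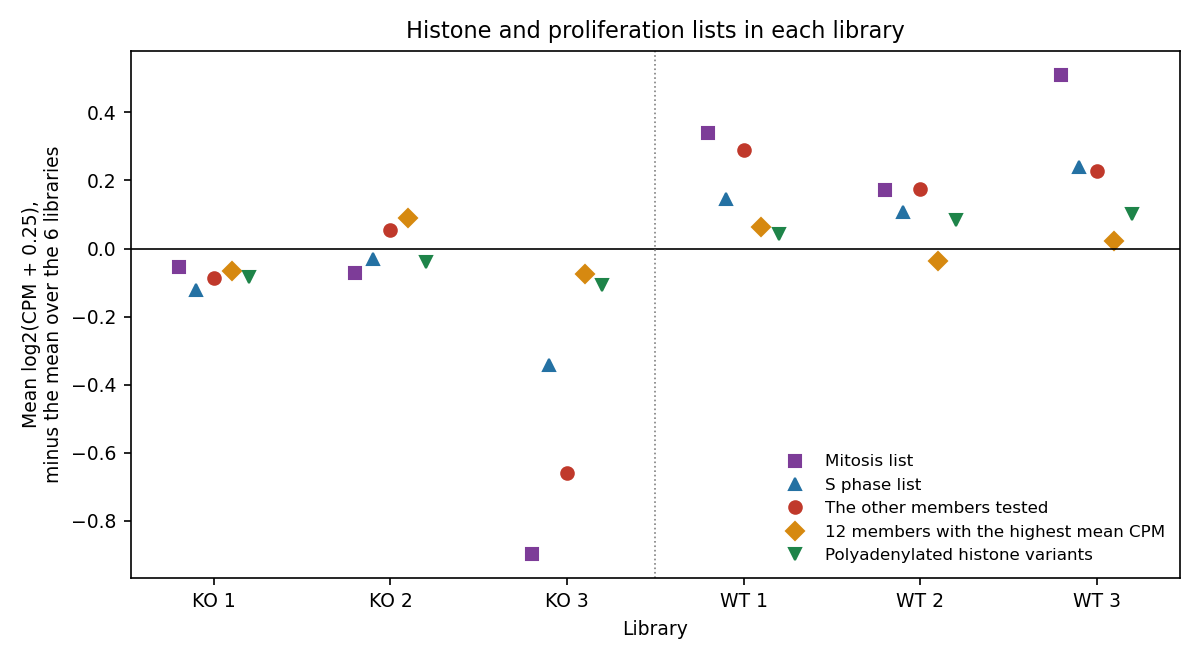
Mean log2(CPM + 0.25) of each list in each library, minus the mean of that list over the 6 libraries, with KO libraries left of the dotted line and WT libraries right of it. KO 3 is lowest for the mitosis list, the S phase list and the 43 members outside the 12 with the highest mean CPM. The 12 lie near 0 in all libraries, and KO and WT overlap for them. The polyadenylated variants differ little between libraries, but every KO library lies below every WT library for them.

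Markers of other cells also differed between the libraries, in both directions. Of 14 macrophage genes found in the table, 12 were lower in KO (median −0.91), 9 of them at an unadjusted p under 0.05, and 1 was higher at that level. Their summed level ranged over 1247 to 2226 CPM in KO, against 2881 to 3263 CPM in WT, none was at 0 in any library, and KO 3 was lowest for 12. Without KO 3, 12 were lower with a median of −0.63. C1qb, a complement gene of macrophages, had 303, 283 and 134 CPM in KO, against 434, 478 and 508 CPM in WT. Of 9 lymphocyte genes 7 were lower and KO 3 was lowest for 8, with summed levels of 80.8 to 205 CPM in KO, against 251 to 294 CPM in WT. Most of that sum was Ptprc, which leukocytes in general express. The other 8 genes summed to 21.3, 29.05 and 6.26 CPM in KO, against 20.1, 20.6 and 29.01 CPM in WT, and the groups overlapped. Without KO 3, 4 of the 9 lymphocyte genes were lower and 5 higher, with a median of 0.27. Thymocyte genes, markers of a cell type that proliferates, summed to 19.3 to 39.4 CPM in KO, against 9.57 to 26.5 CPM in WT, with overlap between the groups. Of the thymocyte genes, Rag2 was at 0 in WT 2, and Ptcra was at 0 in KO 1, WT 1 and WT 2. The adipocyte, smooth muscle and endothelial lists were mostly higher in KO. Of 7 adipocyte genes 7 were higher (median 0.98), 3 of them at an unadjusted p under 0.05, with sums of 959 to 1245 CPM in KO, against 231 to 760 CPM in WT. Of 9 smooth muscle genes 8 were higher (median 0.37), with sums of 5757 to 14382 CPM in KO, against 5442 to 9620 CPM in WT. Of 8 endothelial genes 7 were higher (median 0.28), 1 of them at that level, with sums of 1101 to 1634 CPM in KO, against 908 to 1618 CPM in WT. Fibroblast genes were lower for 5 of 7 (median −0.06), with sums of 3049 to 5840 CPM in KO, against 4760 to 7038 CPM in WT. Erythroid genes were lower for 3 of 3 tested (median −1.31), with sums of 16.1 to 23.5 CPM in KO, against 15.7 to 108 CPM in WT. The 108 CPM were those of WT 3, and without that library the erythroid median was 0.36. The part of these cells, and of the nerve RNA in KO 3, in the histone result was not tested.

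The 12 clustered histone genes under the threshold of 30 counts included 9 with 0 counts. Hist1h1t, the H1 gene of testis, was just below the threshold with 20 counts, and Hist1h2ah, with 52, was the member just above it. Its levels were 0.345, 0.436 and 0.236 CPM in KO, against 0.455, 0.336 and 0.309 CPM in WT, which overlapped. Hist2h2aa2 had 2 counts and Hist1h4m 1 count. The testis genes Hist1h2aa and Hist1h2ba were listed at 0. The counting left out reads that align to several places, and in 7 of the 9 genes at 0 under 40% of 50-base windows of the transcript were unique. Reads over more than 1 gene were left out as well. Hist1h2bq and Hist1h2br had the same mm9 span, as had Hist2h3c1 and Hist2h3c2, and Hist2h2aa1 and Hist2h2aa2. The span of Hist1h2ap lay within that of Hist1h2ao. Which of these rules left the genes at 0 was not tested. Among the members, 23 of 56 had under 50% unique windows, so their counts may cover only part of the transcript, and levels per length of such genes are uncertain. Hist1h4n shares 366 bases with Hist1h4m on the same strand, and reads there were left out as ambiguous.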

How the data were processed

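RNA-seq libraries of 3 KO and 3 WT arteries were used, grouped by sample title. The deposited values are raw read counts per gene. Per the file headers, the authors made them with featureCounts over exons of an mm9 gene annotation, with no option set for strand, paired ends or multi-mapping reads. STAR (version given as 3.0), CASAVA, Subread and DESeq2 are also named in the submitters' processing notes. A read over more than 1 gene, or with several alignments, was therefore not counted. Depth was 22223584 to 26982005 counts per library, and no replicate pair agreed within sampling noise.

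From these counts, KO was compared with WT by the two-sided quasi-likelihood test of edgeR 4.0.16 (glmQLFit, glmQLFTest; R 4.3.3), after TMM scaling and filterByExpr at its minimum count of 10, with Benjamini-Hochberg adjustment over the 15937 genes tested and a threshold of 0.05. CPM are counts per 1000000 counts of TMM-scaled library size, and standard errors come from the F statistic. The step was tested on simulated counts. Members and lists were chosen with earlier results of these data known, so lists are described by counts and medians, without a test. Alternatives were other scalings, filters, DESeq2 1.42.0, limma-voom (limma 3.58.1), a replicate block and left-out libraries. Named members were the 12 with the highest mean CPM, up to 6 in each direction with the smallest unadjusted p, those with known poly(A) transcripts, those at the threshold, and up to 4 genes per other list with the highest mean CPM. Hist1h1a and Hist1h1b, Hist1h3h, H2afz, H2afx, Asf1b and Slbp fall outside this rule and were named after their values were seen. Labels do not say whether libraries of a group come from separate litters, and p-values measure the spread between these animals. Stem-loops and 50-base windows come from GENCODE M21 transcripts matched by symbol (all 68 genes), and promoters from RefSeq. Count-table coordinates are mm9.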

Additional observations from a re-analysis of the deposited data

How the results depend on the processing

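The members' median log2 fold change kept its direction in every alternative run. Leaving out 1 library at a time gave −0.67 to −0.26, with the value nearest 0 without KO 3. The number of genes called was 0 by edgeR and 53 by DESeq2, and 1 without both libraries rich in nerve RNA. DESeq2 called 1 member. With a library left out, the counts of genes, members and list genes called were 0 to 0. Replicate numbers did not pair the samples (KO 1 with WT 1, r = 0.43; KO 2 with WT 2, r = −0.68; KO 3 with WT 3, r = −0.58). With the replicate number as a block, 0 genes and 0 members were called and the median was −0.56.

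Of the 21 named genes, Col15a1 included, 13 kept their direction in every alternative. The other 8 changed sign in at least 1 alternative, 7 of them with values near 0 over all libraries and Hist3h2ba with 0.63. Hist1h1c was −0.012 with DESeq2-style size factors and with DESeq2, −0.020 with upper-quartile scaling, −0.034 with total counts and −0.013 without both nerve-rich libraries. Hist1h4d was −0.011 with DESeq2-style size factors, −0.024 with upper-quartile scaling, −0.037 with total counts, −0.010 with DESeq2, −0.0033 with limma-voom, −0.0032 with the replicate block and −0.11 without both libraries. Hist1h2bc was −0.0065 with total counts, and Hist1h4h −0.10 without both libraries. With 1 library left out at a time, Hist1h1c ranged from −0.086 to 0.022, Hist1h2bc from −0.063 to 0.10, Hist1h4d from −0.11 to 0.10, Hist1h1e from −0.070 to 0.21, Hist1h4h from −0.12 to 0.17, Hist1h2be from −0.13 to 0.019, Hist3h2a from −0.22 to 0.056 and Hist3h2ba from −0.088 to 0.88. The cause was not tested. Thresholds of 10 and 100 counts gave 57 and 53 members. Depth limits the members with few counts. Counts of members whose groups did not overlap without KO 3, or without KO 3 and WT 2, were added after seeing the data.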
